A study of Mus musculus with 15 samples.

Results

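The 7 genes described here encode the E-proteins and their inhibitors: *Tcf3*, *Tcf4* and *Tcf12* on the activator side, and *Id1*, *Id2*, *Id3* and *Id4* on the inhibitor side. They were taken by gene name from the 2 tables of normalized counts, where they are 7 of the 26835 genes listed for *Lhx6* and of the 25714 listed for *Mtg8*. All 7 passed the filter on low values in both tables (a mean normalized count of at least 10). The rule names the genes and uses none of their values.

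The study asked how the transcription factor LHX6 and the corepressor MTG8 (gene *Runx1t1*) act in interneurons that are born in the medial ganglionic eminence (MGE) and migrate to the cortex. RNA was sequenced from YFP-positive cells sorted from the cortex of single embryos at E14.5, with 1 embryo per library. The *Lhx6* table held 4 controls (Lhx6+/+) and 5 mutants (Lhx6-/-). The *Mtg8* table held 3 controls (Mtg8+/+) and 3 libraries labelled Mtg8-/-. All embryos, controls included, carried Nkx2-1-Cre Tg and R26R-YFP fl/fl, so that Cre made under the *Nkx2-1* promoter marked the lineage, on a mixed C57BL6/CBA background. Both mutations were carried by the whole embryo and not by the sorted lineage alone, the *Mtg8* allele being a LacZ knock-in.

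E-proteins are helix-loop-helix transcription factors that bind the DNA word CANNTG, the E-box, as dimers, often with a tissue-specific partner such as a neurogenin. Id proteins have the dimerization domain but lack the basic region that contacts DNA, so an E-protein paired with an Id protein does not bind. Id genes are classical targets of BMP signalling through SMADs and are known for keeping progenitors undifferentiated, whereas proteins of the MTG family are known partners of E-proteins.

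Promoter windows of 2 genes are shown because they differ in the word that E-proteins bind. They were read from a RefSeq extract (GRCm38.p6) in which 5 of the 7 genes were matched (*Tcf3*, *Tcf12*, *Id2*, *Id3* and *Id4*), and the windows of *Id1* and *Tcf4* were not analysed here. Each line runs 5′ to 3′ on the strand of the gene and ends before the start site or before the first annotated exon of the gene. Capitals mark CANNTG. The *Tcf12* window is chr9:72111872-72112069 on the minus strand and the *Id4* window is chr13:48260866-48261115 on the plus strand.
Tcf12: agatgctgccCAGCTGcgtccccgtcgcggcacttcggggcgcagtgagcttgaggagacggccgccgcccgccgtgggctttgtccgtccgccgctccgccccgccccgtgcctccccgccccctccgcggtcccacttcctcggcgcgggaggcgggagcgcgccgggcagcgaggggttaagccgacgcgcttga
Id4: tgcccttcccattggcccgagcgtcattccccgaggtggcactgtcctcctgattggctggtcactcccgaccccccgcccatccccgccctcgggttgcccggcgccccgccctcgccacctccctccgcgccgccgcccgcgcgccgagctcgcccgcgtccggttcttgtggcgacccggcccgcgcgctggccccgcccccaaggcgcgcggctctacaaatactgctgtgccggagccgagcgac
The 198 bases of *Tcf12* held 1 E-box, of the form CAGCTG, and the 250 bases of *Id4* held 0. In windows of 300 bases, from 250 before the start to 50 after it, CANNTG was present on either strand in 72.3% of 32851 promoters and CAGCTG, which is a special case of it, in 16.3%. *Tcf3*, *Id2* and the first start of *Tcf12* had 1 CANNTG each in such a window, and those of *Id2* and *Tcf12* were CAGCTG. The other 2 *Tcf12* starts in the extract had 2 and 1 CANNTG and 0 CAGCTG. *Id3* and *Id4* had 0. These letters describe the windows and not binding.

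The genes differ widely in size, which bears on how their levels are compared. In GRCm38 *Tcf3* spans chr10:80409514-80433647 (minus strand, 4039 bases of exon) and *Tcf12* spans chr9:71842688-72111871 (minus strand, 15529 bases of exon). *Tcf4* has the longest exon sequence, with 27382 bases. The Id genes are compact: *Id1* (chr2:152736251-152737410, plus strand) has 1160 bases of exon and *Id2* (chr12:25093799-25097140, minus strand) has 2438. *Id3* (chr4:136143497-136145755, plus strand) has 1791 bases of exon and *Id4* (chr13:48261228-48266026, plus strand) has 3849. The exons of *Id4* overlap those of 2 genes on the other strand by 253 bases in all, and the strand setting of the counting was not given in the sources used here. Those neighbours, *A330033J07Rik* and *Gm49291*, had group means between 0.186 and 3.22 normalized counts. The exons of the other 6 genes overlapped no other gene.

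Depth ranged from 12218422 to 22053032 reads per library. The targeted genes were examined first. *Lhx6* lay between 236 and 495 normalized counts in the *Lhx6* mutants and between 5812 and 8441 in their controls. *Runx1t1* was not lower in the libraries labelled *Mtg8* mutant. It lay between 12250 and 13934 there and between 7938 and 10265 in the controls, and the word labelled is kept for them throughout. *Sst*, the somatostatin gene, averaged 16695 in the *Mtg8* controls and 6615 in the labelled mutants, with no overlap (log2 fold change -1.34, limma adjusted p = 0.0713). The summed level of the MGE interneuron markers lay between 39739 and 48408 normalized counts per kb in those controls and between 19656 and 25378 in the labelled mutants. *Sst* and *Npy* made up 74.4% of that sum in the *Mtg8* controls, and without them the other 13 markers summed to 10839 to 11711 in controls and to 7852 to 12105 in labelled mutants, which overlapped. Of the 15 tested, limma and edgeR called 0, with 7 at an unadjusted p under 0.05 in limma, against 5.49% of all genes. DESeq2 called *Sst* (adjusted p = 1.12e-05) and *Npy*, a neuropeptide gene (-1.09, adjusted p = 0.0300), both lower. Counts over *Runx1t1* do not show whether the message from a LacZ knock-in allele makes protein. Of the MGE markers *Sst* was the highest per length, with a mean of 11499 normalized counts in the *Lhx6* controls. Marker genes of pyramidal neurons were also present in every library, their summed level being 3011 to 9522 normalized counts per kb of exon in controls against 30415 to 48408 for the MGE markers. Markers of erythroid (red blood) cells summed to 2466 to 79872 over all libraries. In *Lhx6* control 3 their sum (79872) exceeded that of the MGE markers (32639). The sort was for YFP-positive cells, and how pyramidal and erythroid transcripts came to be in the libraries was not tested.

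Levels between genes were compared as normalized counts per kb of exon, within each table. In the *Lhx6* controls *Id2* was the highest of the 7, at 1073 ± 315 (SD, n = 4). *Tcf4* followed at 575 ± 37.2, then *Id4* at 509 ± 67.3 and *Id3* at 492 ± 20.9. The ranges of *Tcf4* and *Id4* overlapped, as did those of *Id4* and *Id3*, so their order is not resolved by these embryos. *Tcf12* (300.2 ± 38.2), *Tcf3* (162 ± 14.7) and *Id1* (50.2 ± 10.4) stood below them, with no overlap between neighbours. *Id2* was higher per kb than 92.6% of all genes tested and *Id1* than 44.2%.

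In the *Mtg8* controls *Id2* (804 ± 202 normalized counts per kb, SD, n = 3) and *Tcf4* (772 ± 64.0) overlapped at the top. *Id3* (525 ± 123) and *Tcf12* (437 ± 12.95) formed the next pair and also overlapped. *Tcf3* (62.0 ± 14.001) and *Id4* (52.3 ± 7.07) overlapped far below them, and *Id1* was the lowest at 31.1 ± 7.03. *Id4* was thus among the higher members in the controls of the *Lhx6* table and among the lowest in those of the *Mtg8* table.

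**Figure D1:**
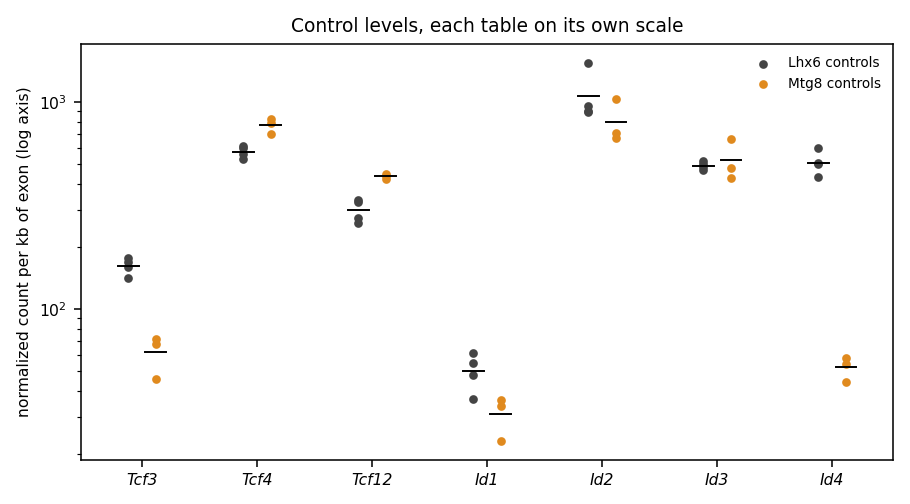
Level of each gene in the control libraries, as normalized counts per kb of exon on a log axis; 1 point is 1 library and the bar is the group mean. *Id4* averaged 509 in the *Lhx6* controls and 52.3 in the *Mtg8* controls, each table being on its own scale.

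The tables were normalized separately, so the control libraries were also put on a shared scale by dividing the recovered reads by size factors computed over all 15 libraries. This step was added after the values were seen, and levels were not tested between the tables. *Id4* then lay between 1703 and 2357 in the 4 *Lhx6* controls and between 165 and 212 in the 3 *Mtg8* controls, a ratio of means of 10.5. *Tcf3* differed in the same direction, from 587 to 724 against 180 to 279, a ratio of 2.80. *Id3* had nearly equal means (907 and 901). A wide gap was not particular to *Id4*. With each table on its own scale, *Neurog2* averaged 1700 normalized counts in the *Lhx6* controls and 130 in the *Mtg8* controls. *Cdkn1c* averaged 2793 and 236 in the same order. The share of all genes with such a gap was not counted. The mutant libraries showed the same separation for *Id4*, with 1721 to 3459 in *Lhx6* mutants and 204 to 410 in labelled *Mtg8* mutants. The mutated line and whatever else differs between the tables cannot be told apart.

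The libraries of the *Lhx6* table were compared first. limma called 286 of 16727 genes, 1.71% of those tested, at a Benjamini-Hochberg adjusted p under 0.05, and 0 of the 7 E-protein and Id genes were among them. Without adjustment 2132 genes (12.7%) had p under 0.05, and 3 of the 7, *Tcf12*, *Id2* and *Id3*, were among them. DESeq2 on the recovered reads called 811 of 17890 genes (4.53%) and included *Tcf12* alone of the 7. edgeR called 280 genes and none of the 7. The groups did not overlap for *Tcf12* and *Id3*, and for 6.22% of all genes tested.

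*Tcf12*, which encodes the E-protein HEB, gave the smallest p of the 7. Its normalized counts were 5118, 4040, 4272 and 5218 in *Lhx6* controls 1 to 4. In mutants 1, 2, 3, 5 and 6 they were 3605, 3105, 3352, 3228 and 3012. Every mutant library was below every control library, and the mutants were the tighter group, with an SD of 231 against 593. The mutant mean was 69.9% of the control mean, and the log2 fold change was -0.51 (SE 0.12, 95% interval -0.77 to -0.25) with a limma adjusted p of 0.0547. The call thus lay at the edge of the threshold. It passed with TMM factors (limma adjusted p = 0.0337), with equal totals (0.0223) and with DESeq2 (0.00164), and missed it with edgeR (0.0504). It missed more widely with a replicate block (log2 fold change -0.41, limma adjusted p = 0.571) and without control 1 (0.236) or control 4 (0.235). With name style as a covariate the log2 fold change was -0.62, in a fit that rests on mutant 6. Over the 20 alternatives tried the adjusted p ran from 0.00164 to 0.571. By exact two-sided permutation p was 0.0159, which is the lowest value possible for 4 libraries against 5.

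*Tcf3*, the gene of E2A, had 646, 708, 683.5 and 572 normalized counts in the *Lhx6* controls. The mutants had 856, 616, 734, 681 and 1056. The groups overlapped, and the log2 fold change of 0.25 (95% interval -0.12 to 0.63) gave a limma adjusted p of 0.567. It was 0.14 without mutant 6 and 0.70 with name style as a covariate, neither passing the test. The latter fit rests on mutant 6. Mutant 6 was the highest library for *Tcf3* and the lowest for *Tcf12*.

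*Tcf4*, the gene of E2-2, was the most counted of the 7 and the main E-protein transcript per kb. It had 16819, 15280, 16341 and 14565 normalized counts in the *Lhx6* controls and 29219, 16654, 21100, 20244 and 14952 in the mutants. The mutants were far more spread than the controls (SD 5523 against 1019), with mutant 1 on top and mutant 6 within the control range. The log2 fold change was 0.34 (95% interval -0.02 to 0.70, limma adjusted p = 0.427), and 0.20 without mutant 1.

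**Figure D2:**
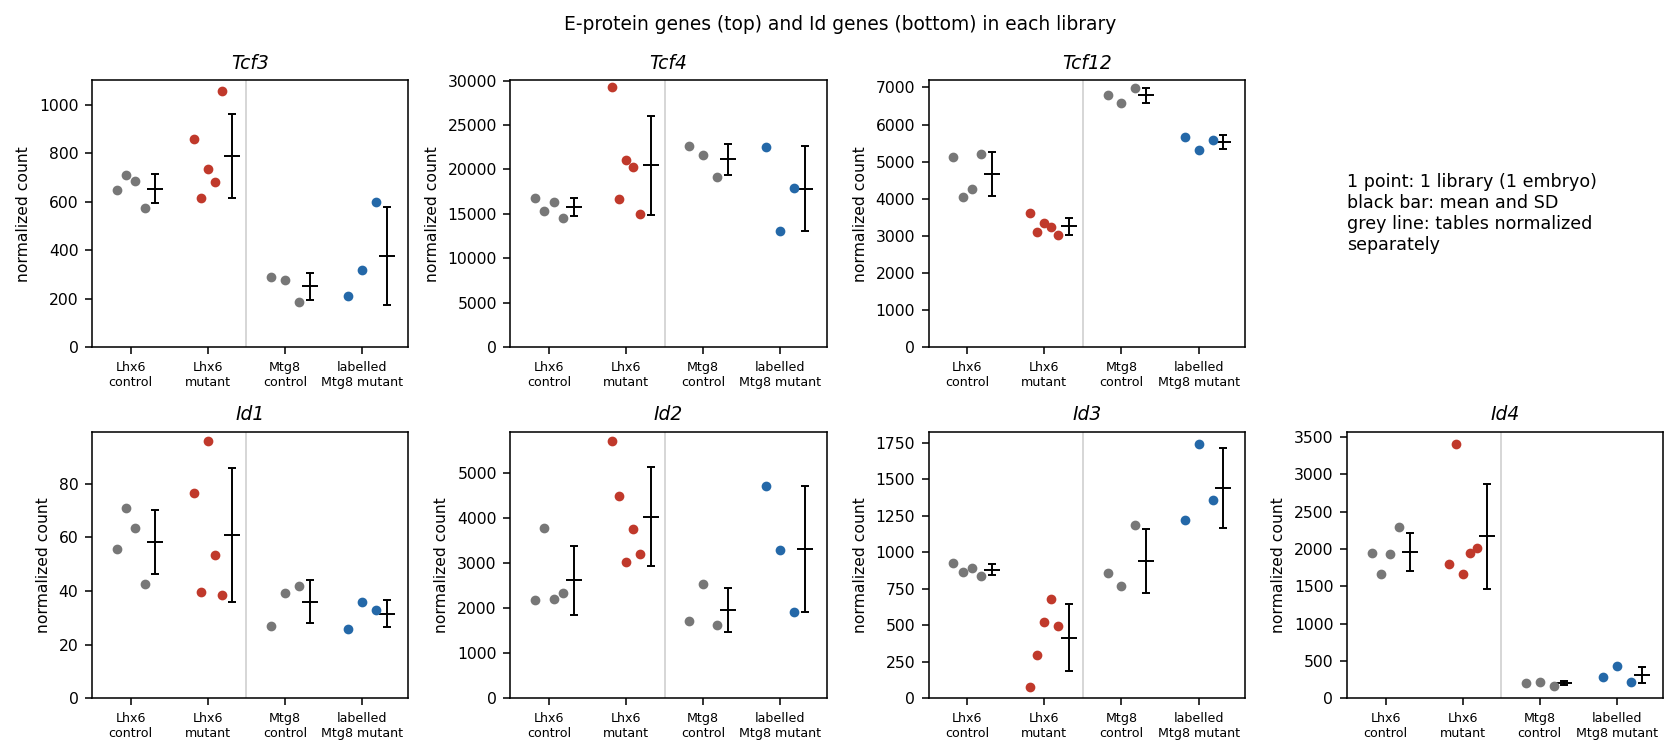
Normalized counts of the 7 genes in each of the 15 libraries, on linear axes from 0, with the mean and SD of each group beside the points. *Tcf12* lay lower in every *Lhx6* mutant and every labelled *Mtg8* mutant than in any control of the same table, and *Id3* lay at 79.2 to 678 in the *Lhx6* mutants and at 1219 to 1742 in the labelled *Mtg8* mutants, on opposite sides of their controls.

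Among the inhibitors, *Id3* had the widest difference. The *Lhx6* controls were close together, at 927, 868, 894 and 839 normalized counts. The mutants had 79.2, 299.9, 522, 678 and 499. Every mutant was below every control, but the mutants differed among themselves, mutant 1 standing lowest with 64 reads. That library also stood apart over all genes, with a chi-square of the recovered reads per gene, which is larger the further apart 2 libraries are, of 93.4 to 127 from the controls, against 23.3 to 57.8 for the other mutants. The mutant mean was 47.1% of the control mean. The log2 fold change was -1.39 (SE 0.48, 95% interval -2.44 to -0.35), with a limma adjusted p of 0.228 and an exact permutation p of 0.0159. Without mutant 1 the log2 fold change was -0.88.

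*Id2* was the main Id transcript per kb, and its *Lhx6* controls had 2170, 3764, 2204 and 2324 normalized counts. The mutants had 5693, 4473, 3030, 3746 and 3188. Control 2 stood above 3 of the 5 mutants, and the other 3 controls stood below all of them. The mean was 154% of control, with a log2 fold change of 0.62 (SE 0.21, 95% interval 0.16 to 1.08) and a limma adjusted p of 0.217. The exact permutation p was 0.0635. Library quality weights brought the limma adjusted p to 0.0429, the only 1 of 20 alternatives under the threshold.

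*Id4* had 1950, 1664, 1927 and 2295 normalized counts in the *Lhx6* controls. The mutants had 1803, 3409, 1667, 1944 and 2016, so that 4 of the 5 lay inside the control range and mutant 2 stood alone above it. The log2 fold change was 0.10 (95% interval -0.32 to 0.53, limma adjusted p = 0.838), and without mutant 2 it was -0.07. *Id1* was low in all libraries. Its controls spanned 42.8 to 70.9 normalized counts and its mutants 38.4 to 95.9, with a log2 fold change of -0.01 whose 95% interval of -0.75 to 0.74 leaves room for a change in either direction.

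In the *Mtg8* table limma called 0 of 16132 genes (0%), and 886 genes (5.49%) had an unadjusted p under 0.05, 493 of them higher and 393 lower in the labelled mutants. The count of 0 depended on the setting. Leaving out 1 of the labelled mutants, or adding a replicate block, gave the calls listed at the end, with none of the 7 among them. edgeR called 1 gene and DESeq2 30, none of them among the 7. *Id2* and *Id3* were under an unadjusted p of 0.05. The groups did not overlap for *Tcf12* and *Id3*, and for 10.2% of all genes tested. With 3 libraries against 3 the exact permutation test cannot go below p = 0.1.

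*Tcf12* again lay lower in every labelled mutant. The controls 1, 2 and 4 had 6789, 6593 and 6995 normalized counts, and the labelled mutants 2, 3 and 4 had 5661, 5303 and 5587. Both groups were tight, with SDs of 201 and 189, and the labelled mutants' mean was 81.2% of the control mean. The log2 fold change was -0.30 (SE 0.16, 95% interval -0.64 to 0.04), with a limma adjusted p of 0.859 and an exact permutation p of 0.1.

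*Id3* lay higher in the labelled mutants. The controls had 862, 770 and 1188 normalized counts and the labelled mutants 1219, 1742 and 1356. The groups did not overlap, although control 4 lay just below labelled mutant 2. The labelled mutants' mean was 153% of control, and the log2 fold change was 0.62 (SE 0.23, 95% interval 0.13 to 1.12, unadjusted p = 0.0174, limma adjusted p = 0.859).

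*Id2* had 1719, 2525 and 1633 normalized counts in the *Mtg8* controls and 4710, 3283 and 1918 in the labelled mutants. The labelled mutants were spread over a range that included a control, labelled mutant 4 lying below control 2. The log2 fold change was 0.69 (SE 0.29, 95% interval 0.05 to 1.33), with an unadjusted p of 0.0374 and a limma adjusted p of 0.859. It was 0.39 without labelled mutant 2 and 1.03 without labelled mutant 4. *Id4* had 209, 224 and 171 in the controls and 290, 434 and 214 in the labelled mutants. Labelled mutant 4 lay within the control range, and the log2 fold change of 0.58 (95% interval -0.04 to 1.20) had a limma adjusted p of 0.859. Without labelled mutant 3 it was 0.31.

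*Tcf4* had 22574, 21636 and 19179 normalized counts in the *Mtg8* controls and 22518, 13052 and 17954 in the labelled mutants. Labelled mutant 2 lay within the control range and labelled mutant 3 was the lowest. The log2 fold change was -0.28 (95% interval -0.71 to 0.16, limma adjusted p = 0.875), and -0.07 without labelled mutant 3. *Tcf3* had 291, 275 and 186 in the controls and 210, 316 and 600.1 in the labelled mutants. The spread over the labelled mutants (SD 202) exceeded the difference of the means, and the limma adjusted p was 0.877. Its log2 fold change was 0.07 without labelled mutant 4 and 0.82 without labelled mutant 2. *Id1* lay between 26.8 and 42.1 in the controls and between 26.06 and 35.8 in the labelled mutants, with a log2 fold change of -0.17 (95% interval -1.01 to 0.66). Over 16 alternatives that of *Id1* ran from -0.46 to -0.05.

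The 2 effects were then compared with each other by an interaction term fitted on the shared scale. limma called 79 of 16599 genes (0.476%), and 0 of the 7 genes. *Id3* gave the smallest p of the 7. Its effect in the *Mtg8* table exceeded that in the *Lhx6* table by 2.03 on the log2 scale (SE 0.67, 95% interval 0.62 to 3.43, unadjusted p = 0.00716, limma adjusted p = 0.262). Without *Lhx6* mutant 1 the difference was 1.51 and the limma adjusted p was 0.0480, in a range of 0.0480 to 0.535 over 23 alternatives. *Tcf4* differed the other way, by -0.60 (95% interval -1.19 to -0.02, limma adjusted p = 0.461), and without labelled mutant 3 by -0.39 (unadjusted p = 0.167). For *Id4* it was 0.49 (95% interval -0.23 to 1.20), and 0.23 without labelled mutant 3. For *Tcf12* the difference was 0.22, with a 95% interval of -0.16 to 0.60, and for *Id2* it was 0.08, with a 95% interval of -0.75 to 0.90. Equal differences in the 2 tables for *Tcf12* and *Id2* are inside these intervals, as are differences of moderate size.

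**Figure D3:**
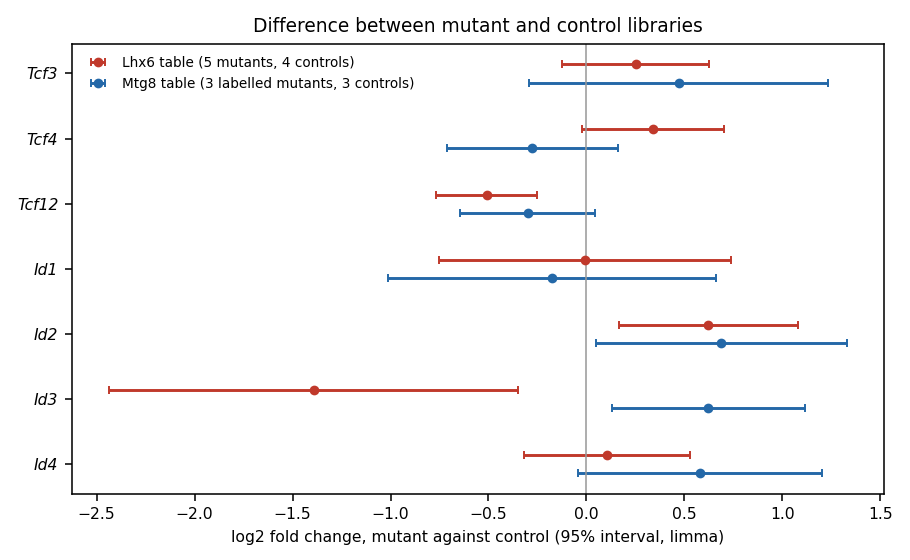
Log2 fold change of mutant (for *Mtg8*, labelled mutant) against control libraries with 95% intervals from limma, for the *Lhx6* table (red) and the *Mtg8* table (blue). *Tcf12* was at -0.51 and -0.30 and *Id2* at 0.62 and 0.69, while *Id3* was at -1.39 and 0.62.

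The balance of the 2 families was described in each library by the summed level per kb of the 4 Id genes over that of the 3 E-protein genes, with no test. In the *Lhx6* controls 1 to 4 the ratio was 1.78, 2.54, 1.88 and 2.04, and in the mutants 1, 2, 3, 5 and 6 it was 1.93, 3.04, 1.75, 2.21 and 2.14. The groups overlapped throughout. In the *Mtg8* controls the ratio was 0.948, 1.21 and 1.18, and in the labelled mutants 2, 3 and 4 it was 2.19, 2.75 and 1.40. There the groups did not overlap, as was so for 10.2% of the single genes tested, and the mean log2 ratio was 0.88 higher in the labelled mutants. The Id genes are shorter than *Tcf4* and *Tcf12*, and short and long genes moved apart in labelled mutant 3, as given below. The Id sum averaged 1412 ± 147 (SD, n = 3) normalized counts per kb in those controls and 2267 ± 567 in the labelled mutants. The E-protein sum averaged 1271 ± 69.1 and 1099.7 ± 180.0.

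**Figure D4:**
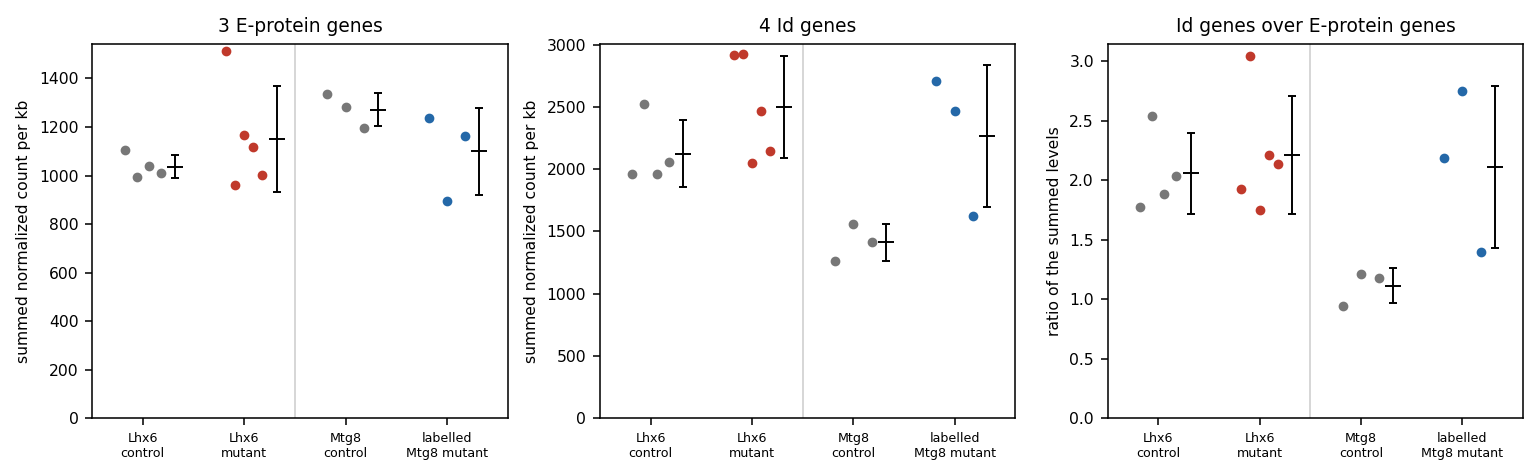
Summed level of the 3 E-protein genes, summed level of the 4 Id genes (normalized counts per kb) and the ratio of the sums in each library, with group means and SDs. The ratio ran from 0.948 to 1.21 in the *Mtg8* controls and from 1.40 to 2.75 in the labelled *Mtg8* mutants, whereas the groups of the *Lhx6* table overlapped.

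In the *Lhx6* table the shares of *Tcf12* and *Id3* in their families did not overlap between the groups, and the shares of all the other members did. Of the E-protein sum, *Tcf12* took 28.9% ± 3.35 (SD, n = 4) in the *Lhx6* controls and 18.5% ± 1.999 (n = 5) in the mutants, with no overlap between a low of 26.2% in controls and a high of 20.8% in mutants. *Tcf4* took 55.5% ± 1.97 and 64.1% ± 5.98. Of the Id sum, *Id3* took 23.5% ± 3.22 in the *Lhx6* controls and 9.96% ± 6.03 in the mutants, and *Id2* 49.8% ± 7.64 and 65.4% ± 8.30. In the *Mtg8* table the shares of *Id3* (37.5% ± 9.67 in controls, 37.0% ± 10.9 in labelled mutants) and of *Id2* (56.6% ± 9.58 and 58.1% ± 11.9) were close, so the higher Id sum there was spread over both. The E-protein shares overlapped there, *Tcf12* taking 34.5% ± 2.72 and 32.8% ± 4.64 and *Tcf4* 60.6% ± 1.84 and 58.6% ± 6.90.

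Several features of the libraries moved with these values, and their part in them was not tested. In a sorted population a lower count can stand for fewer cells of a type or for less RNA per cell, and the 2 cannot be told apart. The summed level of 11 radial glia markers, a cell type known for Id expression, lay between 3162 and 3789 normalized counts per kb in the *Mtg8* controls and between 3950 and 6791 in the labelled mutants. Most of that sum was 1 gene, *Fabp7*, which averaged 2410 per kb in these controls. Of the 11 markers 10 were higher on average in the labelled mutants. Labelled mutant 3, the highest for these markers, was also the highest for *Id3* and *Id4*. In the *Lhx6* table the radial glia sum was 4695 to 5873 in controls and 4146 to 8380 in mutants. Mutants 6 (8380) and 1 (6824) were the highest there, and their *Id3* lay below all controls and their *Id4* inside the control range. The 12 pyramidal markers summed to 4807, 6360 and 3011 normalized counts per kb in *Mtg8* controls 1, 2 and 4 and to 9440, 4969 and 4073 in labelled mutants 2, 3 and 4, whose order is that of their *Id2* values. The pyramidal sum was mostly *Neurod6*, which averaged 3436 per kb in the *Mtg8* controls. Of the 12 pyramidal markers 11 were higher on average in the labelled mutants. limma and edgeR called 0 of the 12, with 6 at an unadjusted p under 0.05 in limma, against 5.49% of all genes. DESeq2 called *Neurod2* and *Emx1*, both higher. The median of the 12 in limma was 0.60 on the log2 scale. Among *Lhx6* libraries the highest pyramidal sum of a control, 9522, was that of control 2, which was also the highest control for *Id2*. The *Lhx6* mutants did not keep that order throughout, mutant 6 having the next to highest pyramidal sum of them (8373) and the next to lowest *Id2* (3188). The 10 cycling-cell markers summed to 1781 to 1803 in the *Mtg8* controls and 1807 to 2199 in the labelled mutants. The 10 endothelial markers, a class in which *Id1* and *Id3* are well known, summed to 9.11 to 106 over all libraries, and *Cldn5*, the tight-junction gene claudin-5, was at 0 in at least 1 library of each group.

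Gene length was examined after the values were seen. In labelled *Mtg8* mutant 3, the 4517 genes with at most 2000 bases of exon had a median of 0.33 on the log2 scale above the control mean, and the 2422 genes with over 8000 bases had a median of -0.32. *Id1* and *Id3* are in the first class and *Tcf4* and *Tcf12* are in the other. *Id1* had 35.8 normalized counts in that library, inside the control range. In the other 2 labelled mutants these medians were between -0.05 and 0.02, and *Id3* was above all controls in both. The ratio of the Id sum to the E-protein sum was 2.75 in labelled mutant 3 and 2.19 and 1.40 in labelled mutants 2 and 4. The part of gene length in that ratio was not tested. In *Lhx6* mutant 1, the highest library for *Tcf4* and the lowest for *Id3*, the medians were 0.12 for the short genes and 0.24 for the long ones. The widest gap among *Lhx6* libraries was in mutant 3, at -0.25 for the short genes and 0.18 for the long ones, and in the other 3 mutants both medians lay between -0.04 and 0.11.

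Library names come in 2 styles, with and without a date, and what the style marks is not stated. All 4 *Lhx6* controls were undated, and of their mutants only number 6 was. Against the controls that mutant gave log2 differences of -0.62 for *Tcf12*, -0.82 for *Id3*, 0.33 for *Id2* and -0.07 for *Tcf4*. In the *Mtg8* table *Tcf12* differed by -0.24 among the dated libraries (2 controls, 1 labelled mutant) and by -0.36 among the undated ones (1 control, 2 labelled mutants). *Id3* differed by 0.58 and 0.37 and *Id2* by 1.18 and 0.62 in the same order. *Tcf3* changed direction between the styles, with -0.43 and 1.22. Some library names also share all but their last number. The paper describes the mutant embryos as littermates of their controls, but which libraries share a litter or a preparation is not stated. *Mtg8* controls 1 and 2 and labelled mutant 2 share 1 such stem, *Lhx6* controls 1 and 2 and mutant 6 another, and *Lhx6* mutants 2 and 5 one more. The chi-square per gene was 16.8 between *Lhx6* mutants 2 and 5, against 26.4 to 122 for the other pairs of mutants. The *Lhx6* controls that share a stem were no closer than others, at 17.1 against 16.6 to 22.3 for 4 of the other 5 control pairs and a lower value for controls 2 and 4, and mutant 6 was at 28.4 and 23.3 from the controls of its stem and at 29.6 and 23.7 from controls 3 and 4. Labelled *Mtg8* mutant 2 was at 18.9 and 15.3 from controls 1 and 2, against 48.8 to 55.7 for labelled mutants 3 and 4. Those controls were at 10.7 from each other, against 26.3 and 27.2 for the other pairs of *Mtg8* controls. The p-values treat all libraries as independent. Within the stem that holds both *Lhx6* groups, mutant 6 differed from the 2 controls by -0.59 for *Tcf12*, -0.84 for *Id3* and 0.16 for *Id2* on the log2 scale, a comparison added after the values were seen.

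Genes around the E-protein and Id network were then read from lists. The partners that bind DNA with E-proteins had 13 members tested in the first table and 12 in the second, with 0 called in either by limma or edgeR. DESeq2 called 1, *Neurod2*, in the *Mtg8* table (log2 fold change 1.12, adjusted p = 0.0265). Unadjusted p values under 0.05 were given by 3 of them in each table. Their median log2 fold change was -0.33 in the *Lhx6* table, where the median of all genes was -0.04, and 0.54 in the *Mtg8* table, where that of all genes was -0.01. *Neurod6* and *Neurog2*, proneural factors of the pyramidal lineage, were the highest of this list per kb. *Neurog2* averaged 1700 normalized counts in the *Lhx6* controls and 1177 in the mutants (log2 fold change -0.56, limma adjusted p = 0.198), and 130.0 and 169 in the *Mtg8* table (0.40, limma adjusted p = 0.896). *Neurod6* averaged 9961 and 7855 in *Lhx6* controls and mutants and 7387 and 10055 in the *Mtg8* groups, overlapping in both.

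The list of HES, HEY and related bHLH repressors, several of which act downstream of Notch, had 8 and 7 members tested and 0 called by limma, edgeR or DESeq2 in either table, with 0 and 3 at an unadjusted p under 0.05. Their medians were -0.24 and 0.31 on the log2 scale. *Hes6*, whose protein is known to oppose HES1, averaged 2688 in the *Lhx6* controls and 2075 in the mutants (limma adjusted p = 0.432), and *Hes5*, a Notch target of radial glia, averaged 90.2 in the *Mtg8* controls and 206 in the labelled mutants with overlapping ranges (limma adjusted p = 0.870).

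The 3 MTG corepressors bind E-proteins. *Runx1t1* rose in the *Lhx6* mutants, from 7449 ± 1072 (SD, n = 4) to 17973 ± 5387 (n = 5) normalized counts, a log2 fold change of 1.23 (SE 0.19, limma adjusted p = 0.00401). In the labelled *Mtg8* mutants its log2 fold change was 0.54 (limma adjusted p = 0.859), the groups not overlapping. *Cbfa2t3*, the gene of MTG16, did not pass in either table, with log2 fold changes of -0.35 (limma adjusted p = 0.564) and 0.15 (0.934). Of the 9 LDB and LMO bridging factors, which link LIM-domain factors to E-protein complexes, *Ssbp3* rose in the *Lhx6* mutants, from 5070 to 8127 normalized counts (log2 fold change 0.67, SE 0.12, limma adjusted p = 0.0115). It averaged 2730 and 3173 in the *Mtg8* table (0.18, limma adjusted p = 0.924). *Lmo4* was called by DESeq2 alone in the *Lhx6* libraries (0.46, adjusted p = 0.000523, limma adjusted p = 0.0639), and its groups did not overlap. *Ssbp2*, a paralogue of *Ssbp3*, had log2 fold changes of 0.19 and -0.14, neither passing the test.

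The BMP receptors and SMADs upstream of the Id genes had 12 members tested in each table and 0 called by limma or edgeR, with 2 in each at an unadjusted p under 0.05 in limma. DESeq2 called *Acvr2b* (1.21, adjusted p = 0.00171) and *Acvr1* (0.81, adjusted p = 0.00503) in the *Lhx6* table and *Bmpr1b* (1.84, adjusted p = 0.0477) in the *Mtg8* table, receptors that were all higher. Their median log2 fold change was 0.26 in the *Lhx6* libraries and -0.18 in the *Mtg8* table. *Smad4*, the shared SMAD, averaged 774 and 1143 in the *Lhx6* table (limma adjusted p = 0.433) and 700.9 and 650.2 in the *Mtg8* table (0.945). *Smad5* averaged 958 and 1116, then 1723 and 1547. The regulators of E-protein and Id stability, among which *Calm2* was the highest, had 8 members tested and 0 called by limma, edgeR or DESeq2 or under an unadjusted p of 0.05 in each table. Of the cyclin-dependent kinase inhibitors, some of which are known E-protein targets, 5 and 4 were tested and likewise 0 called by any of the 3 tools or under that p, and *Cdkn1c* averaged 2793 and 2396 in *Lhx6* controls and mutants and 236 and 285 in the *Mtg8* groups.

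The markers of other cells that passed the test in the *Lhx6* table were read beside these. Among MGE interneuron markers, *Lhx6*, *Sst*, *Npy* and *Satb1* fell in the mutants, and *Dlx5* and *Dlx6*, homeobox genes of the ganglionic eminences, rose. Of the 7 CGE markers tested, *Htr3a* and *Npas1* fell in limma and 3 others were higher on average, none of which passed in limma. edgeR called *Npas1* alone. DESeq2 called 5 of the 7, against 4.53% of all genes, with *Cck* (-0.77, adjusted p = 0.0118) also lower and *Nr2f2* and *Sp8* (1.26, adjusted p = 0.0393) higher. In the *Mtg8* table limma and edgeR called 0 of them, with 1 at an unadjusted p under 0.05 in limma, and DESeq2 called *Sp8* higher (1.42, adjusted p = 0.0292). In the *Lhx6* libraries *Nr2f2* averaged 721 and 1361, with no overlap (log2 fold change 0.88, limma adjusted p = 0.0676, DESeq2 adjusted p = 0.00427). Of the 12 pyramidal markers, *Bcl11b* rose and 7 were lower on average, among them *Fezf2*, whose groups did not overlap (-0.56, limma adjusted p = 0.0748, DESeq2 adjusted p = 0.00276). *Nr2f2* and *Fezf2*, and the genes named for a DESeq2 call, were chosen after their values were seen. *Fabp7*, the highest radial glia marker, averaged 4533 and 4956 normalized counts in *Lhx6* controls and mutants and 3013 and 4683 in the *Mtg8* groups, and passed in neither (limma adjusted p = 0.889 and 0.859). Of the 11 radial glia markers limma and edgeR called 0 in either table, with 2 and 4 at an unadjusted p under 0.05 in limma. DESeq2 called 1, *Sox2*, a transcription factor of neural progenitors, which averaged 1027 and 2139 in *Lhx6* controls and mutants with no overlap (limma log2 fold change 0.95, limma adjusted p = 0.115, DESeq2 adjusted p = 0.0106).

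Finally, the genes that varied most like each of the 7 were listed from Pearson's r over 15 libraries of log2 values centred within each table, among 10225 genes with a mean of at least 100. These are descriptions without a test, and libraries of 1 genotype, and their depth, are shared by all points. The differences between mutants and controls are part of r, so r was also computed with each gene centred within its group, a step added after the values were seen. *Tcf12* varied most like *Hivep3* (0.92), *Satb1* (0.91), a chromatin organizer of MGE interneurons, and *Thbs1* (0.91), and within groups these were 0.66, 0.47 and 0.35. *Tcf4* varied most like *Rabgap1* (0.94) and *Chd8* (0.94), and *Tcf3* like *Arhgap39* (0.89), *Pgls* (0.88) and *D030056L22Rik* (0.87). For *Id2* the nearest were the transcription factor gene *Nfia* (0.90), *Nab1* (0.89) and *Foxp1* (0.88). For *Id3* they were *Rmdn3* (0.95), *Nt5c3b* (0.94) and *Gm9387* (0.93), for *Id4* *Tmem234* (0.82), *Prdx1* (0.79) and *Gm12666* (0.79), and for *Id1* *Fbxw9* (0.80), *Wwox* (0.80) and *Ttpal* (0.78). Among the 7 themselves, *Id3* and *Tcf4* were opposed (r = -0.74, and -0.63 within groups). *Tcf12* and *Id2* had r = -0.62 but -0.14 within groups, and *Id2* and *Id4* had 0.46 and 0.28.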

How the data were processed

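RNA was sequenced as single reads of 75 bases from libraries made for low input. The authors used fastp 0.20.1 for trimming, STAR 2.7b for alignment and featureCounts 1.6.4 for counting on the GENCODE annotation of GRCm38, and removed sex-linked genes. The deposited signal is the gene's count over the library's DESeq2 size factor, and the 2 tables were normalized separately. The tables also hold the authors' comparison (mean, fold change with its error, statistic and p-values), which was not used. Whole reads were recovered for 100% of values within a tolerance of 0.01.

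With limma 3.58.1 in R 4.3.3 a model with an intensity trend was fitted on log2(normalized count + 1) over all genes with a mean of at least 10, two-sided, each table alone, with p adjusted by Benjamini-Hochberg and called under 0.05. Fold changes are on that scale, which understates those of low genes. The interaction used recovered reads with joint size factors. edgeR 4.0.16 and DESeq2 1.42.0 on recovered reads, other scalings, filters, pseudocounts of 0.5 and 10, quality weights, a replicate block, name style and leaving out libraries were alternatives. The tests were tried on simulated counts of independent libraries. Those held no shared stems, name styles or shifts with gene length, so they do not show how the tests behave with such features. Single genes were given exact permutation tests in scipy. Reads carry no molecular identifiers, so depth speaks to counting error only, and p-values measure the spread between embryos, 1 per library.

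The genes and lists were chosen with earlier results of these data known. Named genes were the 7, the 2 targeted genes, the called genes of each list with its 2 highest per kb (1 for cell markers), and the 3 genes most correlated with each of the 7. Some genes that this rule names are not reported here.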

Additional observations from a re-analysis of the deposited data

Results flagged for a closer look

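*Id2* in *Lhx6* control 2 stood apart from the other controls of its table, with 3764 normalized counts against 2170 to 2324 in the other 3. *Id4* in *Lhx6* mutant 2 stood apart from the other mutants, with 3409 against 1667 to 2016 in the other 4. A gap of this relative size arises by chance in about 1 of 20 cases, and 14 combinations of a gene and a group were examined, the 7 genes in the *Lhx6* controls and in the *Lhx6* mutants.

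*Id3* lay on opposite sides of its controls in the 2 tables, every *Lhx6* mutant lying below the mean of its controls and every labelled *Mtg8* mutant above the mean of its own. It passed the test in neither table (limma adjusted p = 0.228 and 0.859). The *Mtg8* effect exceeded the *Lhx6* effect by 2.03 on the log2 scale (limma interaction, unadjusted p = 0.00716, adjusted p = 0.262).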

How the results depend on the processing

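Of 258 values of the 7 genes in the 2 tables under other settings, 240 kept their direction and their side of the threshold, 7 passed it and 11 changed sign. *Tcf12* in the *Lhx6* table passed with a minimum mean of 50 (-0.51, limma adjusted p = 0.0465), TMM factors (-0.55), equal totals (-0.57), DESeq2 (-0.52) and quality weights (-0.55), and ranged from -0.58 to -0.45 with libraries left out (limma adjusted p 0.0249 to 0.236, passing without mutant 1). *Id2* there passed with quality weights (0.64). *Id1* there changed sign with a pseudocount of 10 (0.0018), edgeR (0.052), DESeq2 (0.063) and the replicate block (0.074), and with libraries left out (-0.19 to 0.13), as did *Id4* (-0.071 to 0.19). *Tcf4* there was at -0.073 with name style as a covariate, a fit that rests on mutant 6.

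Genes called in the *Lhx6* table numbered 811 with DESeq2, 844 with quality weights, 57 with name style and 159 to 491 with libraries left out (159, 174 and 173 without controls 1, 2 and 4, and 491 without mutant 6). In the *Mtg8* table they numbered 1 without a filter and with edgeR, 2 with a minimum mean of 50 and with quality weights, 30 with DESeq2 and 0 to 86 with libraries left out (86 without labelled mutant 2). The replicate block gave 86 and 100. Same-numbered libraries correlated at -0.15 to 0.07 in the *Lhx6* table, so the numbers were not taken as pairs there. In the *Mtg8* table they correlated at 0.14 to 0.16, above the other pairs of a control and a labelled mutant (-0.18 to 0.08). The main fit ignores the numbers there too, and whether they mark pairs is not settled by these values. For the difference between effects, 213 genes were called with quality weights and 49 to 445 with libraries left out (49 without *Mtg8* control 2 or labelled mutant 3, 197 without *Lhx6* mutant 6, 445 without labelled mutant 2). There *Id1* was at 0.096 with quality weights, and with libraries left out at -0.35 to 0.032, *Id2* at -0.23 to 0.42, *Id3* at 1.51 to 2.28 and *Tcf3* at -0.18 to 0.58.

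The log2 ratio of Id to E-protein levels, mutant minus control, was 0.09 in the *Lhx6* table (-0.03 to 0.20 with libraries left out), 0.42 with *Tcf4* left out of its sum and -0.47 with *Id2* left out, and 0.66 to 1.15 in the *Mtg8* table with libraries left out. The causes of these shifts were not tested.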
